A study of Mus musculus with 14 samples.

Results

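The E proteins of the mouse are encoded by Tcf3, Tcf4 and Tcf12, which were 3 of the 21721 protein-coding genes examined for binding of the BMP effectors pSMAD1/5/9 and SMAD4 in muscle stem cells (MuSCs). Each gene was taken as its canonical GENCODE transcript on GRCm39 with 20 kb added on both sides, and every peak that overlapped this region by at least 1 bp was assigned to it. The position of a peak is the distance of its summit from the transcription start site (TSS) of that transcript, counted in the direction of transcription, and its strength is the rank of its signal in its list, where rank 1 is the strongest. A peak was therefore assigned by position, and it may belong to a neighbouring gene. The regions held 31 SMAD peaks in all, 10 of pSMAD1/5/9 and 21 of SMAD4 over both conditions.

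The study used CUT&Tag, in which an antibody directs the Tn5 transposase to chromatin, with antibodies against pSMAD1/5/9, SMAD4 and the acetylated histone H3K27ac, a mark of active promoters and enhancers. MuSCs came from muscles of female C57BL/6N(Tg(Pax7-EGFP)Tajb) mice aged 9 weeks and were enriched by sorting for GFP, which reports Pax7 in this transgenic line; the labels do not say how many animals went into a culture. According to the paper's methods, the cells were first cultured in medium with serum and growth factors, so they were not freshly sorted cells. All cells, controls included, were then kept in serum-free medium with 200 ng/mL of the soluble receptor BMPR1A-Fc for 6 h. They then received 100 ng/mL BMP6 for 1 h (BMP6-stimulated cells), or the vehicle of 4 mM HCl with 0.1% BSA for the same time (control cells), and 100000 fixed cells went into each assay. Of the 14 libraries, 12 form the 6 consensus peak lists, with 2 biological replicates for each antibody and condition, and 2 libraries that had no primary antibody were left out.

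The lists held 7339 pSMAD1/5/9 peaks in BMP6-stimulated and 949 in control cells, 12860 and 8577 SMAD4 peaks, and 78050 and 67790 H3K27ac peaks. Each peak had passed an irreproducible discovery rate (IDR) of 0.05 between both replicates, so where no peak is listed, none passed that threshold, which does not show that the factor was not there. Libraries of an antibody had been reduced to the same number of reads, but that number and the reads behind a peak are not in the lists. The signals of different lists have no stated common scale, so they were compared by rank within 1 list, and no difference between conditions was tested. With 2 replicates against 2, an exact two-sided permutation test of 1 peak cannot go below p = 0.333. The paper reports a test of differential binding with the programs DiffBind and DESeq2, which could not be repeated here without read counts. H3K27ac lay within 2 kb of the TSS of 6 of 6 MuSC markers in both conditions (Pax7, Myf5, Myod1, Des, Cdh15 and Vcam1). No H3K27ac peak was listed there at the endothelial genes Pecam1 and Cdh5 or the mesenchymal genes Pdgfra and Ly6a. Of the blood cell genes, Ptprc had none, and Cd68 had 1 weak peak in each condition, at rank 50045 in BMP6-stimulated and 22344 in control cells. A narrower window, from 1.5 kb before to 0.5 kb after the TSS, held H3K27ac at 53.7% and 51.7% of all genes. The markers were added after seeing the data.

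E proteins are basic helix-loop-helix (bHLH) transcription factors that are made in most tissues and bind the E-box, CANNTG, as dimers. In muscle they are the usual partners of the myogenic regulatory factors, such as MYOD1 and MYOG, and these heterodimers activate the genes of differentiation. Id proteins, encoded by Id1 to Id4, have the dimerization domain without the basic region that contacts DNA. They bind E proteins and keep them from the myogenic factors, and the Id genes are classical targets of BMP signaling, in which receptor-activated SMAD1, SMAD5 and SMAD9 are phosphorylated and enter the nucleus with SMAD4.

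The pSMAD1/5/9 peaks of Tcf3 and Tcf12 in BMP6-stimulated cells are shown by their sequence, to show the bases at promoters and at distal sites that the results below return to. The bases were read from the plus strand of GRCm39, 5′ to 3′, although both genes lie on the minus strand. Capitals mark E-boxes (CANNTG); the SMAD motifs GGAGCC and GGCGCC and the palindrome GTCTAGAC were searched as well on both strands and do not occur in these windows. The first window starts just upstream of the Mbd3 TSS, the next just upstream of the Tcf3 TSS, and annotated UTR bases were left out of both. The Tcf12 windows are an intron site, shown from 100 bp before the SMAD4 summit over 300 bp so that the pSMAD1/5/9 summit is included, and a site downstream of the gene.
Tcf3 region, Mbd3 promoter, chr10:80235398-80235528: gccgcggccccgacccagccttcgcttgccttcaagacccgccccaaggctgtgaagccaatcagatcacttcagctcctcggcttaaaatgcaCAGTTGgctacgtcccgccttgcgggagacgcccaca
Tcf3 promoter, chr10:80269578-80269766: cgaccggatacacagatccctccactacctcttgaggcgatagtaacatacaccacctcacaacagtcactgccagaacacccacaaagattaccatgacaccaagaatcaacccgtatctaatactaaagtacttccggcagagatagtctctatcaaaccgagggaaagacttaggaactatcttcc
Tcf12 intron, chr9:71782096-71782395: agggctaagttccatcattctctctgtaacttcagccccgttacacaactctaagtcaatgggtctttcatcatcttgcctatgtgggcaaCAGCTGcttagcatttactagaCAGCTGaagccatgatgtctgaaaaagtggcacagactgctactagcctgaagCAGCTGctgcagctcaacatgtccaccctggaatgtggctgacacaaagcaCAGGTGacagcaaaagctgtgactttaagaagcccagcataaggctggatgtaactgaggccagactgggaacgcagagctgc
Tcf12 downstream, chr9:71733673-71733872: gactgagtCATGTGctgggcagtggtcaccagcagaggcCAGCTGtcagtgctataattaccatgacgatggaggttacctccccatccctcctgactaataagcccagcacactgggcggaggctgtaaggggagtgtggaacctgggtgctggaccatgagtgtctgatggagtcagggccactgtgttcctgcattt
The Mbd3 promoter window of 131 bp held 1 E-box, CAGTTG, and the Tcf3 promoter window of 189 bp held none. The Tcf12 intron window held 4 E-boxes, of which 3 were CAGCTG and 1 was CAGGTG. The downstream window held 2, CATGTG and CAGCTG. The windows differ in length, and in the 200 bp around the pSMAD1/5/9 summit the Tcf12 intron site held 2 E-boxes.

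Tcf3 (ENSMUSG00000020167.16), the gene of the E2A proteins, lies on the minus strand at chr10:80244046-80269577 and has 19 exons. Of its 3 SMAD sites, only the site at its promoter has its own TSS as the nearest canonical TSS. Its region held 2 pSMAD1/5/9 peaks after BMP6 and none in control cells. For SMAD4 the numbers were 3 and 5. The first pSMAD1/5/9 peak, chr10:80269450-80270070, covered the TSS with its summit 90 bp upstream. It ranked 1818 in the list, and 1689 and 2166 by the values of the single replicates. SMAD4 was listed at the same promoter as a pair of peaks in either condition, at ranks 5947 and 9165 in BMP6-stimulated cells and 4629 and 7292 in control cells. Thus the Tcf3 promoter was in the SMAD4 lists of both conditions, but for pSMAD1/5/9 it was listed after BMP6 alone.

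The stronger pSMAD1/5/9 peak of the Tcf3 region, chr10:80235091-80235870, lay 34.1 kb downstream of the TSS and 8617 bp past the 3′ end of the gene. Its summit was 32 bp from the TSS of Mbd3, a methyl-CpG-binding domain protein of the NuRD complex, whose promoter falls inside the region. It ranked 1722, and 2176 and 1354 by replicate. The same promoter carried the strongest SMAD4 peak of all E protein regions in each condition, at rank 249 in BMP6-stimulated cells (476 and 113 by replicate) and rank 385 in control cells (543 and 260). A further control SMAD4 peak beside it ranked 5632. The last control peak of SMAD4, rank 7844, lay 58 bp from the TSS of Uqcr11, a subunit of respiratory complex III, and had no counterpart in BMP6-stimulated cells. When peaks were kept only where the nearest canonical TSS was that of Tcf3, an alternative chosen after seeing the data, the gene had 1 pSMAD1/5/9 peak in BMP6-stimulated cells and 2 SMAD4 peaks in each condition. Its additional SMAD4 peaks in control cells thus lay at the promoters of Mbd3 and Uqcr11.

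**Figure D1:**
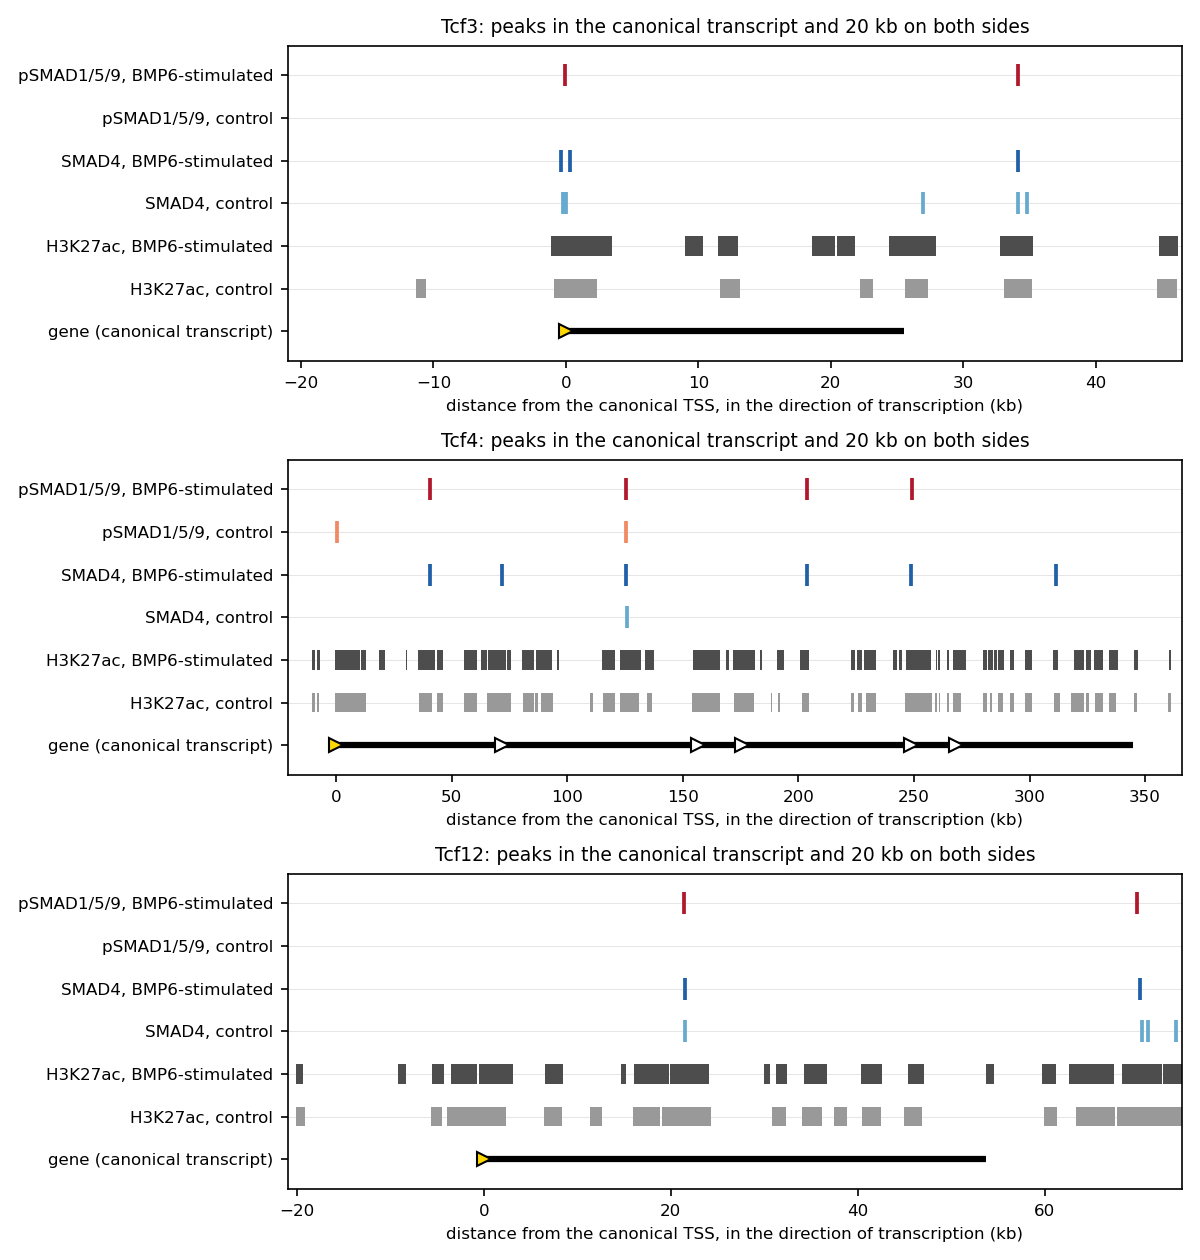
Peaks along Tcf3, Tcf4 and Tcf12, 1 panel per gene and 1 row per list; the x axis is the distance from the canonical TSS in kb, short vertical lines are SMAD summits, bars are H3K27ac peaks, cut where they leave the panel, the thick line is the canonical transcript, the filled arrowhead its TSS and open arrowheads other annotated TSSs of the gene. Tcf4 had 5 sites in BMP6-stimulated cells without a control peak, whereas the intron site of Tcf12 and the sites at the Tcf3 and Mbd3 promoters had SMAD4 peaks in both conditions. Over the whole lists, 11.4% of pSMAD1/5/9 and 45.5% of SMAD4 peaks of BMP6-stimulated cells had a control counterpart.

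Tcf4 (ENSMUSG00000053477.20) lies on the plus strand at chr18:69477167-69822150 and has 20 exons. It is not the Wnt effector TCF4, which is the product of Tcf7l2. With the flanks its region spans 385 kb, and 1.76% of all genes have a region at least as long, so that more peaks of any kind can fall within it. After BMP6 it had 4 pSMAD1/5/9 peaks, all of them in introns. The strongest, chr18:69602431-69603060, lay 125 kb downstream of the TSS in intron 5 and ranked 582, with 501 and 906 by replicate. The others lay 40.6 kb, 204 kb and 249 kb from the TSS, in introns 3, 6 and 8, and ranked 5685, 4551 and 6880. The peak in intron 5 was the highest-ranked pSMAD1/5/9 peak of any E protein gene.

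This site in intron 5 was also the only one at an E protein gene listed for both factors in both conditions. In control cells its pSMAD1/5/9 peak ranked 250 of 949, with 202 and 332 by replicate. Its SMAD4 peak ranked 1651 in BMP6-stimulated cells (1954 and 1427 by replicate) and 980 in control cells (1173 and 887). The SMAD4 summits lay 125517 bp and 125615 bp from the TSS and the pSMAD1/5/9 summits 125472 bp and 125522 bp. All 4 peaks overlapped H3K27ac.

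The other 5 SMAD4 peaks of Tcf4 in BMP6-stimulated cells had no control counterpart. They lay 40.4, 71.7, 204, 249 and 311 kb from the TSS, in introns 3, 3, 6, 8 and 14, and ranked 6830, 9234, 3070, 5124 and 11561. The peak at 71.7 kb was 100 bp from an internal Tcf4 TSS, and that at 249 kb was 311 bp from another. The pSMAD1/5/9 peak at 249 kb had its summit 136 bp from an internal TSS as well, although it did not overlap the SMAD4 peak there. The replicates ranked the SMAD4 peak at 249 kb differently, at 7627 and 2578. Of these 5 SMAD4 peaks, those at 40.4 kb and 204 kb passed the stricter IDR of 0.01.

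The canonical TSS of Tcf4 went the other way. A pSMAD1/5/9 peak in control cells, chr18:69477121-69477680, had its summit 309 bp inside the gene and ranked 500 of 949, with 442 and 562 by replicate. No peak of pSMAD1/5/9 in BMP6-stimulated cells and no SMAD4 peak of either condition was listed there. The peak did not pass an IDR of 0.01, nor did the control peak in intron 5. Over the whole control list, 84.7% (95% Wilson interval 82.3 to 86.9) of the pSMAD1/5/9 peaks had a counterpart after BMP6, which was the case for 1 of 2 at Tcf4.

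Tcf12 (ENSMUSG00000032228.18), whose product is also named HEB, lies on the minus strand at chr9:71749970-71803678 with 14 exons in its canonical transcript, which is a short form of the gene. No SMAD peak was listed at its canonical TSS in any list. The gene had 2 pSMAD1/5/9 peaks after BMP6 and none in control cells, and the SMAD4 lists had 2 and 4. The site in intron 6, 21.4 kb downstream of the TSS, had a pSMAD1/5/9 peak in BMP6-stimulated cells at rank 4374 (3668 and 5045 by replicate). Its SMAD4 peaks ranked higher in their lists, at 1484 in BMP6-stimulated cells (1374 and 1846 by replicate) and 696 in control cells (644 and 876). The SMAD4 summits of both conditions, at 71782196 and 71782199, lay among the 3 CAGCTG elements of the sequence above, and the pSMAD1/5/9 summit, at 71782311, lay beside its CAGGTG.

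The second pSMAD1/5/9 peak of Tcf12 lay 69.9 kb from the TSS, past the 3′ end of the gene, and ranked 6152 (6090 and 5453 by replicate). SMAD4 peaks at this site ranked 3874 in BMP6-stimulated cells and 4281 and 5081 in control cells, of which the peak at rank 5081 overlapped no SMAD4 peak of BMP6-stimulated cells. A further control SMAD4 peak at rank 2532 lay at the edge of the region, with its summit 74.0 kb from the TSS and outside the 20 kb. The nearest canonical TSS to all of these downstream peaks was that of Cgnl1, which encodes paracingulin, a protein of cell junctions. With peaks kept only where the nearest canonical TSS was that of Tcf12, 1 pSMAD1/5/9 peak was left in BMP6-stimulated cells and 1 SMAD4 peak in each condition, all in intron 6.

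**Figure D2:**
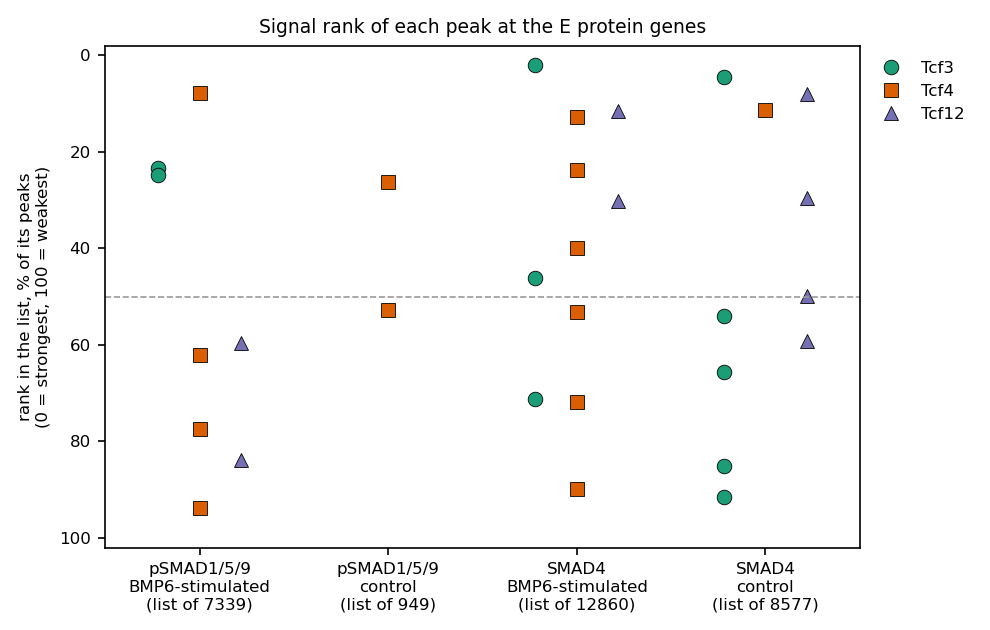
Rank of each SMAD peak at Tcf3 (circles), Tcf4 (squares) and Tcf12 (triangles) in its list, as a percentage of the peaks of that list, with 0 for the strongest at the top; the dashed line marks the middle of the list. In BMP6-stimulated cells 3 of 8 pSMAD1/5/9 peaks and 7 of 11 SMAD4 peaks lie above it.

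The pSMAD1/5/9 peaks of the E protein genes were spread over their list, and 8 peaks are too few to set them apart from it. In BMP6-stimulated cells the ranks ran from 582 to 6880 with a median of 4462.5, 3 of 8 peaks were in the upper 50% of the list, and 3 of 8 passed an IDR of 0.01, compared with 50.1% of the whole list. These 3 were the Mbd3 promoter, the Tcf3 promoter and intron 5 of Tcf4. The SMAD4 peaks of BMP6-stimulated cells ranked from 249 to 11561 with a median of 5124, and 7 of 11 passed an IDR of 0.01 (49.2% of the list). In control cells 4 of 10 SMAD4 peaks passed it (41.7% of the list) and 0 of 2 pSMAD1/5/9 peaks (14.9%). Each rank rests on 2 replicates whose columns carry no replicate number, and the plot of ranks by replicate shows their spread.

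**Figure D3:**
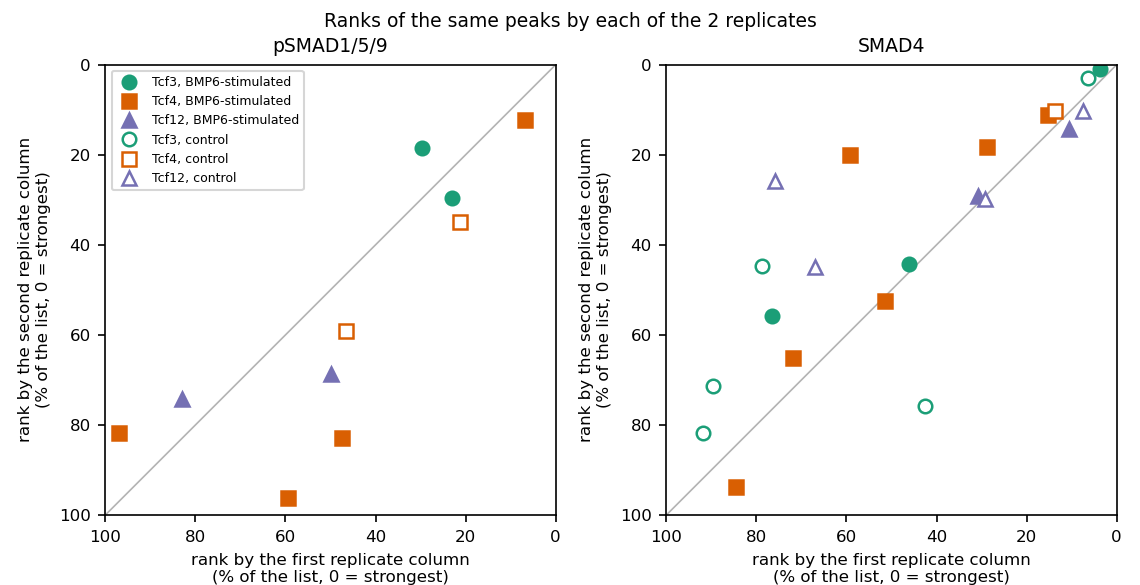
Rank of each SMAD peak by the first and the second replicate column of its list, as a percentage of the list with 0 for the strongest; filled symbols are BMP6-stimulated cells, open symbols are control cells, and on the grey line the replicates rank a peak alike. The strongest peaks lie near the line in the upper right corner, and weaker peaks such as the SMAD4 peak of Tcf4 at 249 kb (ranks 7627 and 2578) lie farther from it.

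A region with a peak was not rare, and the numbers at the E protein genes have to be read against this background. Of all protein-coding genes, 29.1% had a pSMAD1/5/9 peak after BMP6 and 5.97% in control cells, compared with 3 of 3 and 1 of 3 E protein genes. For SMAD4 the shares of all genes were 39.3% and 30.8%, and the E protein genes had 3 of 3 in both conditions. For H3K27ac they were 74.8% and 73.4%, again with 3 of 3. More pSMAD1/5/9 peaks in BMP6-stimulated than in control cells were listed at 27.2% of all genes and at 3 of 3 E protein genes, and fewer at 0.414% and 0 of 3. More SMAD4 peaks were listed at 24.0% of all genes and at Tcf4, and fewer at 7.75% of all genes and at Tcf3 and Tcf12. The lower numbers at Tcf3 and Tcf12 depended on the threshold and the region. At an IDR of 0.01, Tcf3 had 2 SMAD4 peaks in BMP6-stimulated and 1 in control cells and Tcf12 had 2 in each, and without flanks both genes had 1 in each. With 3 genes these counts are descriptions.

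Longer regions hold more peaks, so each gene was also set beside genes whose regions have 80% to 125% of its length. Among the 7020 genes of a length like that of Tcf3, 11% had at least its 2 pSMAD1/5/9 peaks of BMP6-stimulated cells, 10.1% had at least its 3 SMAD4 peaks of BMP6-stimulated cells and 1.41% at least its 5 of control cells. Among 347 genes of a length like that of Tcf4, 5.76% had at least 4 pSMAD1/5/9 peaks and 7.78% at least 6 SMAD4 peaks in BMP6-stimulated cells, while in control cells 1.44% had at least 2 pSMAD1/5/9 peaks and 42.9% at least 1 SMAD4 peak. For Tcf12, with 3310 such genes, 11.9% had at least 2 pSMAD1/5/9 peaks and 20.9% at least 2 SMAD4 peaks in BMP6-stimulated cells, and 3.75% at least 4 SMAD4 peaks in control cells. Per 100 kb of region, the E protein genes had 1.47 pSMAD1/5/9 and 2.02 SMAD4 peaks in BMP6-stimulated cells, beside 0.588 and 0.974 over all genes. In control cells they had 0.367 and 1.84, beside 0.0819 and 0.661. For H3K27ac they had 14.5 peaks per 100 kb in BMP6-stimulated and 12.7 in control cells, beside 5.30 and 4.65 over all genes. A higher density was thus not particular to the SMAD peaks. The density of SMAD4 peaks in control cells differed between the genes. It was 7.63 per 100 kb at Tcf3, 4.27 at Tcf12 and 0.260 at Tcf4, the last below the value of all genes. Most of these peaks at Tcf3 and Tcf12 lay nearest to the TSS of a neighbour. By nearest canonical TSS, 2 were left at Tcf3, 1 at Tcf12 and 1 at Tcf4. The Tcf12 value also leaves out the long form of the gene, whose added 215 kb held no SMAD4 peak.

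**Figure D4:**
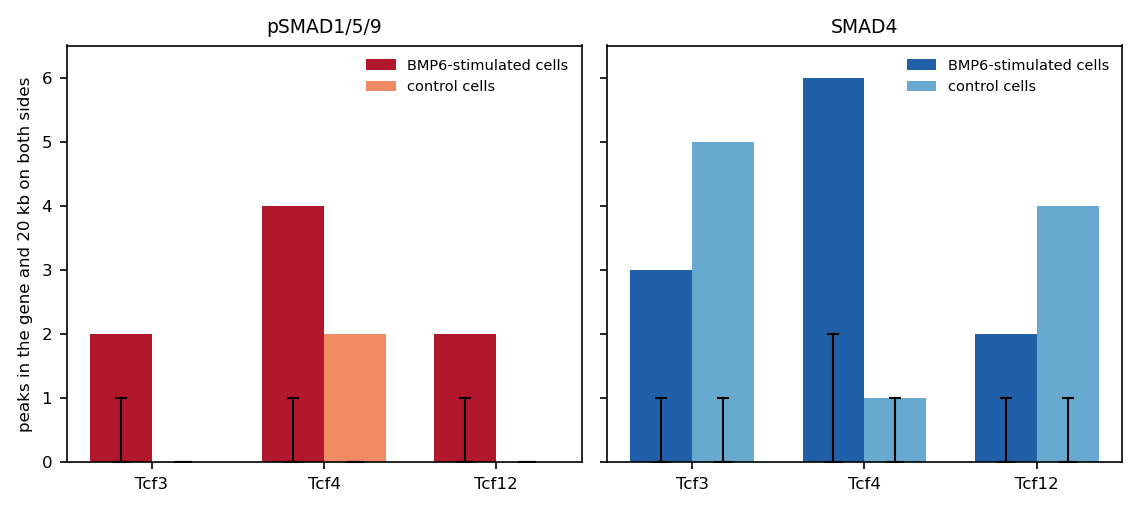
Number of pSMAD1/5/9 (left) and SMAD4 (right) peaks in each region, with dark bars for BMP6-stimulated and light bars for control cells; the black marks give the median (0 in every case) and quartiles over genes with a region of similar length. Tcf4 had 6 SMAD4 peaks after BMP6 and 1 in control cells, while Tcf3 and Tcf12 had 3 and 2 in BMP6-stimulated cells and 5 and 4 in control cells.

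When peaks less than 1 kb apart were joined, the SMAD peaks of the 3 genes formed 13 sites, 7 of them at Tcf4. Of these, 5 sites had peaks in both conditions, 5 had peaks only in BMP6-stimulated cells and 3 only in control cells. All 5 sites found only in BMP6-stimulated cells were at Tcf4, and each gene had 1 site found only in control cells. That of Tcf3 lay at the Uqcr11 promoter, and that of Tcf12 had its summit outside the region. No share over all genes is given for joined sites, so these numbers have no background of their own. By single peaks, 11.4% of all pSMAD1/5/9 and 45.5% of all SMAD4 peaks of BMP6-stimulated cells had a control counterpart. In the other direction the shares were 84.7% and 69.7%. A peak after BMP6 without a control counterpart was thus common in the whole lists. In BMP6-stimulated cells both factors were listed at 8 of the 13 sites. All 13 carried H3K27ac in both conditions, which was also the usual state of SMAD peaks, since between 95.7% and 99.6% of the peaks of each whole SMAD list overlapped H3K27ac of the same condition.

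The share of peaks with a counterpart in the other condition differed between the genes in the same way. At Tcf3, 3 of 3 SMAD4 peaks after BMP6 had a control counterpart, at Tcf12 2 of 2, and at Tcf4 1 of 6. Their intervals, 43.9 to 100%, 34.2 to 100% and 3.01 to 56.4%, overlap, so this difference rests on few peaks. Over the 3 genes the share was 54.5% (28.0 to 78.7), and in the whole list it was 45.5%. In the other direction 7 of 10 control peaks had a counterpart, 70.0% (39.7 to 89.2), beside 69.7% of the list. For pSMAD1/5/9, 1 of the 8 peaks after BMP6 had a control counterpart, 12.5% (2.24 to 47.1), beside 11.4% of the list. Both factors met at most of these peaks, since SMAD4 was listed at 7 of 8 pSMAD1/5/9 peaks after BMP6 (73.2% of the list), and pSMAD1/5/9 at 8 of 11 SMAD4 peaks (42.7% of the list). A SMAD4 peak of control cells lay under 5 of the 8 pSMAD1/5/9 peaks, 62.5% (30.6 to 86.3), beside 57.2% of the list. The intervals are Wilson 95% intervals over peaks and cover counting error only, not the error between replicates.

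H3K27ac covered much of all 3 regions. In BMP6-stimulated and control cells, H3K27ac peaks covered 26.7% and 17.3% of the Tcf3 region, 44.2% and 37.6% of that of Tcf4, and 42.9% and 42.7% of that of Tcf12. The median over all genes was 7.07% and 5.68%. Coverage at least as high as at Tcf4 was found at 4.55% of genes in BMP6-stimulated cells, and as high as at Tcf3 at 14.8%. The numbers of H3K27ac peaks were 8 and 8 at Tcf3, 52 and 46 at Tcf4, and 19 and 15 at Tcf12. In these regions the peak widths rose in smaller steps in BMP6-stimulated cells (such as 560 and 630 bp) than in control cells (such as 600 and 700 bp). Coverage, widths and the splitting of H3K27ac peaks are therefore not strictly comparable between conditions. Of the 79 peaks after BMP6, 62 had a control counterpart, 78.5% (68.2 to 86.1), beside 72.0% of the list. In the other direction it was 63 of 69 (91.3%, 82.3 to 96.0), beside 86.8% of the list.

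**Figure D5:**
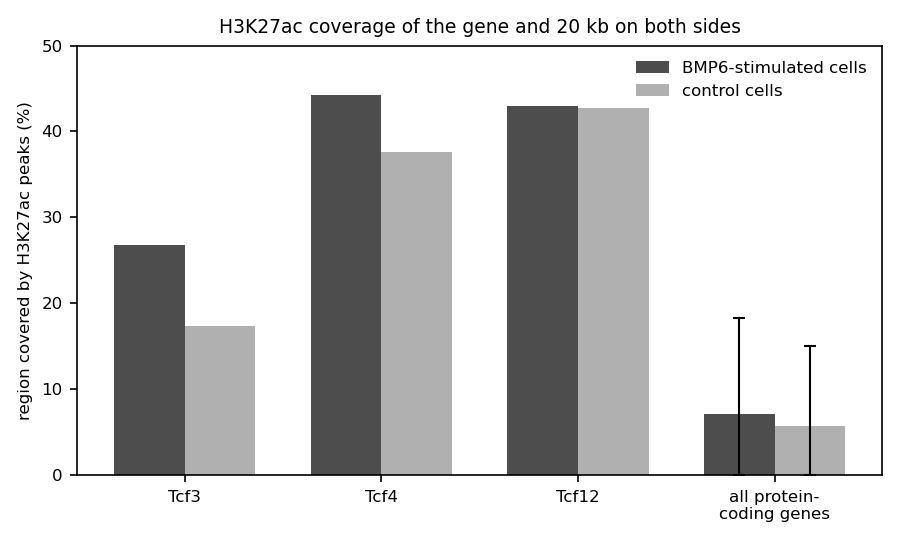
Share of each region covered by H3K27ac peaks, in per cent, for the 3 E protein genes, with dark bars for BMP6-stimulated and light bars for control cells, and the median of all protein-coding genes with its quartiles as error bars. Tcf4 (44.2% and 37.6%) and Tcf12 (42.9% and 42.7%) were covered more than Tcf3 (26.7% and 17.3%), and all of them more than the median gene (7.07% and 5.68%).

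Tcf4 is transcribed from several promoters, and its annotated transcripts start in 6 groups of TSSs within the region. Within 2 kb of each of these, H3K27ac was listed in both conditions. The canonical TSS lay in an H3K27ac peak of 10500 bp in either condition, at rank 2268 in BMP6-stimulated and 2254 in control cells. The strongest H3K27ac peak of the gene in BMP6-stimulated cells, at rank 497 (1244 and 484 by replicate), was 11200 bp wide and covered the internal TSS at 249 kb. The corresponding control peak ranked 2069 (1588 and 3373 by replicate). At the internal TSS at 157 kb, the ranks were 749 and 3292, with 4641 and 469 by replicate in BMP6-stimulated cells, so the ranks of single replicates spread more widely than those of the conditions. These ranks favour wide peaks. By signal per width, the BMP6-stimulated peaks at the canonical TSS, 249 kb and 157 kb ranked 65411, 44945 and 56042 of 78050. The best Tcf4 peaks by that measure lay in the flanks, at rank 5628 (840 bp wide) in BMP6-stimulated and 5346 (1000 bp wide) in control cells. The intron 5 site lay in H3K27ac peaks at signal ranks 1823 and 2030. SMAD peaks in BMP6-stimulated cells were listed at 2 of the 6 TSS groups, those at 71.8 kb and 249 kb.

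At Tcf12, the strongest H3K27ac peak by signal rank lay downstream of the gene and not at the TSS in either condition. By signal per width this held in control cells only, where the best peak ranked 13451. In BMP6-stimulated cells the best peak by that measure was the one just upstream of the TSS, at rank 13496. A control peak of 9200 bp that spanned the downstream SMAD site ranked 370, but 99 and 6024 by replicate. In BMP6-stimulated cells the same stretch held peaks of 4620 bp and 4340 bp at ranks 3985 and 4335. At the intron 6 site H3K27ac ranked 5919 in BMP6-stimulated and 5143 in control cells. Around the canonical TSS, the stretch of 1 control peak of 6300 bp (rank 3657, with 1162 and 16582 by replicate) corresponded to 2 peaks in BMP6-stimulated cells, at ranks 17105 over the TSS and 9857 upstream of it. At the Tcf3 TSS the ranks were 14011 and 6890, and the strongest H3K27ac peak of its region lay at the Mbd3 promoter, at rank 10095 in BMP6-stimulated and 4994 in control cells.

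Motifs were sought in the 200 bp around each summit. E-boxes (CANNTG) were in 6 of 8 pSMAD1/5/9 windows of BMP6-stimulated cells, beside 67.4% of all windows of that list. CAGCTG was in 4 of 8 (31.1% of the list) and CAGGTG, in either orientation, in 2 of 8 (11.4%). Of the windows without an E-box, one was at the Tcf3 promoter and the other at the internal Tcf4 promoter at 249 kb. The intron 5 site of Tcf4 held 5 E-boxes around the pSMAD1/5/9 summit of BMP6-stimulated cells, 1 of them CAGCTG and 1 CAGGTG. In the SMAD4 windows of BMP6-stimulated cells, E-boxes were in 5 of 11 (67% of the list) and CAGCTG in 2 of 11 (29.1%). GGAGCC or GGCGCC, counted on both strands, was in 1 of 8 pSMAD1/5/9 windows (30.2% of the list) and in 3 of 11 SMAD4 windows (28.4%), and GTCTAGAC was in none of these windows. The shares moved with the window. In 100 bp around the summit, E-boxes were in 3 of 8 pSMAD1/5/9 windows (45.1% of the list) and in 5 of 11 SMAD4 windows (44.3%), and in 400 bp in 8 of 8 (85.8%) and in 10 of 11 (85.2%). Neither factor thus stood on the same side of its list at every width. A match describes the letters of the window and not a bound factor.

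The genes of the proteins that dimerize with E proteins were set beside them by the same rule. All 4 Id genes had a pSMAD1/5/9 peak after BMP6 and 2 of 4 in control cells, and their best ranks were 152 at Id3, 204 at Id1, 763 at Id2 and 6843 at Id4. The peaks of Id1, Id2 and Id3 ranked higher than that of the Tcf3 promoter (1818) and of both Tcf12 sites (4374 and 6152), while intron 5 of Tcf4 (582) lay between those of Id1 and Id2. The peak of Id4 ranked lower than all of these. For SMAD4, 4 of 4 Id genes had a peak in BMP6-stimulated cells and 3 of 4 in control cells. Of all genes, 29.1% and 5.97% had a pSMAD1/5/9 peak in BMP6-stimulated and control cells, and 39.3% and 30.8% a SMAD4 peak.

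Of the 4 myogenic regulatory factor genes, Myog and Myod1 had pSMAD1/5/9 peaks in both conditions, with best ranks of 577 and 1221 in BMP6-stimulated cells. All 4 had SMAD4 peaks in both conditions. Myf5 and Myf6 are neighbours whose regions share peaks. There were 21 other bHLH genes whose products pair with E proteins. Of these, 5 had a pSMAD1/5/9 peak after BMP6 (29.1% of all genes) and 2 in control cells (5.97%). Led by Scx, a tendon regulator, at rank 16, they included Atoh8 at rank 24 and Tcf23 at rank 285. The genes named are the best ranked of the 5. SMAD4 peaks were at 6 of the 21 in each condition (39.3% and 30.8% of all genes). Of 7 co-regulators of E protein complexes, 2 had a pSMAD1/5/9 peak in BMP6-stimulated cells, the corepressor genes Cbfa2t3 (rank 2128) and Cbfa2t2 (rank 2997), and none in control cells. SMAD4 was at 4 of the 7 in BMP6-stimulated and 5 in control cells. These 7 genes are to be read against the same shares of all genes.

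The genes most like each E protein gene were found by the distance between square roots of the peak numbers in the 6 lists. For Tcf3 they were Gas8 and Dbndd1, both at a distance of 0.292, and Tubb6 at 0.298. Gas8 and Dbndd1 both lie on chromosome 8 and have the same numbers in all 6 lists, so they may share their peaks. For Tcf4 they were Nav2 (0.866), Samd4 (0.931) and Fggy (0.975), and for Tcf12 Dcaf8 (0.385), Baiap2 (0.421) and Rhobtb1 (0.470). Numbers of peaks grow with the length of a region, and this likeness rests on the numbers alone.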

How the data were processed

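Consensus CUT&Tag peaks of 12 samples in 6 groups of 2 biological replicates were analysed, grouped by antibody and treatment as labelled. According to the methods, the authors reduced all libraries of an antibody to the same number of reads, aligned to GRCm39 (Bowtie2 2.5.4), filtered (SAMtools 1.21), called peaks per replicate with JAMM, and combined the replicates with IDR at a threshold of 0.05. The deposited signal is a score without a fixed range and is the sum of 2 replicate values. Deposited beside it, as −log10, is the IDR of each peak, from which the threshold of 0.01 was taken. The files hold no read counts, so the depth of each sample is not known from them.

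Positions were made 1-based. Genes were canonical transcripts of GENCODE on GRCm39, in place of the RefSeq Select isoforms named in the methods, which were not used here. Python 3.11.15, numpy 2.4.6, pandas 2.3.3, scipy 1.17.1 (Wilson intervals), pysam 0.24.0, samtools 1.23.1 and matplotlib 3.10.9 were used. Counting of peaks per region was tested on simulated data and recovered 1000 of 1000 regions. Genes were named by rule, namely the E protein genes with all SMAD peaks, at most 3 genes per list by pSMAD1/5/9 rank in BMP6-stimulated cells, the 3 most alike, and genes whose TSS was nearest to a peak. The members and lists were chosen with earlier results of these data known. No test was run. Alternatives covered the IDR, the region, the overlap, merged peaks, each replicate column left out, signal per width and the motif window. The cell markers and the assignment by nearest canonical TSS were added after seeing the data.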

Additional observations from a re-analysis of the deposited data

How the results depend on the processing

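Counts depended most on the region and on the IDR. At an IDR of 0.01, the pSMAD1/5/9 peaks at E protein genes fell from 8 to 3 in BMP6-stimulated and from 2 to 0 in control cells, and the SMAD4 peaks from 11 to 7 and from 10 to 4. In a promoter window that began 1.5 kb before the canonical TSS and ended 0.5 kb after it, there were 1 and 1 pSMAD1/5/9, 2 and 2 SMAD4, and 4 and 3 H3K27ac peaks in BMP6-stimulated and control cells. Without flanks, 3 SMAD4 peaks of control cells were left, and with the nearest canonical TSS, 4. The other 36 of 48 recomputed totals stayed within 1.5 times, including those with flanks of 50 kb and with all transcripts.

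At the E protein genes, the share of pSMAD1/5/9 peaks of BMP6-stimulated cells with a control peak was 0 at an IDR of 0.01 in both lists. No control peak of these genes was left for the other direction. With an overlap of at least 50% of both peaks, the SMAD4 shares fell to 27.3% and 30%, and the H3K27ac shares to 67.1% and 76.8%. With summits within 200 bp, the H3K27ac shares were 51.9% and 59.4%. All of these shares are those of the E protein genes. No share of the whole lists is given at these settings, so the shares have no background of their own. They cannot be set beside the whole-list shares above, which rest on the main overlap rule. Genes with a peak in the promoter window made up 11.2% and 1.56% for pSMAD1/5/9, 16.6% and 11.4% for SMAD4, and 53.7% and 51.7% for H3K27ac, in BMP6-stimulated and control cells. Among H3K27ac peaks of Tcf12 in control cells the best rank was 370, and by single replicates it was 99 and, at another peak, 5725. By signal per width it was 13451, and in BMP6-stimulated cells it went from 3985 to 13496. No paired analysis was possible because the replicate columns carry no number and no result comes from a test. Leaving out a replicate was possible for ranks only, since every listed peak needed both.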

Other observations

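The annotation of Tcf12 extends beyond the region used above. Its 10 basic transcripts include a long form whose TSS lies 215 kb upstream of the canonical one, at position 72019177 of chromosome 9. In the 215 kb added by this form and its flank, no pSMAD1/5/9 or SMAD4 peak was listed in either condition, while 11 H3K27ac peaks were listed in each. An H3K27ac peak of 2800 bp in BMP6-stimulated cells and one of 2500 bp in control cells covered the long-form TSS, at ranks 4070 and 2695. The best ranks within 2 kb of the canonical TSS were 9857 and 3657. All 9 groups of annotated TSSs of the E protein genes thus had H3K27ac in both conditions, and SMAD peaks of either factor were listed at 4 of them.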
